A study of Mus musculus with 12 samples.

Results

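FGF2 changed 6 of 10 TGF-beta and activin pathway genes in Ocy454 cells, a mouse osteocyte-like line, against 13.4% of all genes tested. With the FGF receptor inhibitor BGJ398 present, FGF2 changed 0 of the 10, against 0% of all genes, so that count is no result about these 10. Without the inhibitor, FGF2 lowered Fst (2.44-fold), Tgfb3 (1.67-fold), Inhba (1.33-fold) and Ltbp1 (1.22-fold), and raised Inhbb (2.52-fold) and Tgfbr2 (1.26-fold). The 10 genes are a list of ligands, ligand-binding proteins and receptors: Tgfb1, Tgfb2, Tgfb3, Inhba, Inhbb, Fst, Ltbp1, Ltbp3, Tgfbr1 and Tgfbr2. They are 10 of the 35214 genes to which the quantified transcripts could be assigned. All 10 passed the filter on low counts. The list was chosen with earlier results of these data known. Its share of changed genes, set against that of all genes, is therefore a description and no test.

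The study asked what FGF receptor signalling does to the transcriptome of maturing osteoblast-lineage cells. Cells were grown at 33 °C to confluence and moved to 37 °C for 5 days to differentiate. They then received either DMSO vehicle or 200 nM BGJ398, which blocks the kinases of the FGF receptors, for 1 h. For the next 48 h each was kept with or without 2 ng/mL FGF2, and polyA RNA was taken on day 7. The 4 groups are therefore DMSO (vehicle only), DMSO+FGF2, BGJ398 (inhibitor only) and BGJ398+FGF2, with 3 libraries each. All 12 libraries come from one immortalised cell line, and the labels do not say whether the 3 libraries of a group are separate experiments. The p-values therefore reflect library-to-library spread, part or all of which may be technical.

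TGF-beta is secreted in a latent complex with its own propeptide, and latent TGF-beta binding proteins tether that complex to the matrix until the ligand is released. Activins are dimers of the subunits encoded by Inhba and Inhbb, and follistatin, the product of Fst, wraps around activin dimers and keeps them from their receptors. Freed TGF-beta binds the type II receptor, which recruits and phosphorylates the type I receptor, and SMAD2 and SMAD3 carry the signal to the nucleus. Bone matrix is a large store of latent TGF-beta, and TGF-beta acts on osteoblasts and osteocytes.

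Several members are measured as more than one transcript form, and the coding sequences that set the forms apart are shown because they show how the encoded proteins differ. The forms also differ outside the coding sequence, so the shares given further on do not rest on these bases alone. Capitals mark the coding bases carried only by the form with the longer coding sequence, and the 30 lower-case bases on each side are common to both. The transcripts are those of GENCODE M21, read in the sense direction. The Tgfbr2 insert holds coding bases 95 to 169 of Tgfbr2-202 and lies in the extracellular part of the receptor. The Tgfb2 insert holds coding bases 347 to 430 of Tgfb2-206, and the Ltbp1 insert holds coding bases 1190 to 1348 of Ltbp1-203.
Tgfbr2-202 against Tgfbr2-201 (chromosome 9): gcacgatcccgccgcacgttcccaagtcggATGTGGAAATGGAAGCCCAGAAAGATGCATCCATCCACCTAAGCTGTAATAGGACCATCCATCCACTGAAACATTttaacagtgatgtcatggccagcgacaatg
Tgfb2-206 against Tgfb2-201 (chromosome 1): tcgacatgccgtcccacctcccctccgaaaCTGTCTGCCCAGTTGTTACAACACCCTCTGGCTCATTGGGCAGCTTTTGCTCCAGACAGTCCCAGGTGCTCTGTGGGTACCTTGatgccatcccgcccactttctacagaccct
Ltbp1-203 against Ltbp1-202 (chromosome 17): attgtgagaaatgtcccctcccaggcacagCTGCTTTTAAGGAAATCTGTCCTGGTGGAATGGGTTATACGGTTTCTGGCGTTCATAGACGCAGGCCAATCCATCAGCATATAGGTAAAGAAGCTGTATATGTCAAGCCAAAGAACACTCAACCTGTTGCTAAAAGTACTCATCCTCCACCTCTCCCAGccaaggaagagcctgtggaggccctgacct

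The windows before the start sites of the activin subunit genes are shown because Inhba and Inhbb moved in opposite directions with FGF2, and both Ltbp1 windows because this gene is transcribed from 2 starts. Each window holds the 250 bases before the RefSeq start on the gene's strand (GRCm38.p6), and capitals mark matches on either strand to 6 searched motifs: the AP-1 site TGANTCA, the cyclic AMP response element TGACGTCA, the ETS core CCGGAA, the SMAD palindrome GTCTAGAC, the TATA box TATAAA and the GC box GGGCGG.
Inhba, chr13:16011601-16011850, plus strand: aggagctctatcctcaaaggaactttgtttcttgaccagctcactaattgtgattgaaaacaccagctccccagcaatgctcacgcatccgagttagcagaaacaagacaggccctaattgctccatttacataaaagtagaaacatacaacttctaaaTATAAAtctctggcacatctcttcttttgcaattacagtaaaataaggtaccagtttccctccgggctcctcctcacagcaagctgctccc
Inhbb, chr1:119422249-119422498, minus strand: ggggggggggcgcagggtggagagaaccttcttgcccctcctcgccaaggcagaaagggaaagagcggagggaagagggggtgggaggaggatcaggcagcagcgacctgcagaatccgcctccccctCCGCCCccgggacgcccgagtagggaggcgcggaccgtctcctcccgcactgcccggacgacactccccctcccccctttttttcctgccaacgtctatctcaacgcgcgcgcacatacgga
Ltbp1 upstream start, chr17:75005279-75005528, plus strand: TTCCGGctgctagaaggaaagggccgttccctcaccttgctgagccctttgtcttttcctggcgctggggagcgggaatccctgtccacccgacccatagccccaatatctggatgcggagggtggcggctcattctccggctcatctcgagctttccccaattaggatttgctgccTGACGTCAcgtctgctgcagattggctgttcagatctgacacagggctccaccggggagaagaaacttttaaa
Ltbp1 downstream start, chr17:75178531-75178780, plus strand: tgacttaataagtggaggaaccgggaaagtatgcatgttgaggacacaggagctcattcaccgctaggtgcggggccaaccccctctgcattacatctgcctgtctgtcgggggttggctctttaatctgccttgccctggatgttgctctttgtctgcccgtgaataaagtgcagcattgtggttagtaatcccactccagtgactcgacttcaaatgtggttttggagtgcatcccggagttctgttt

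The Inhba window held a TATA box whose first base lies at -91 from the start, and the Inhbb window held a GC box at -122. The upstream Ltbp1 window held a cyclic AMP response element at -73 and an ETS core at -250, and the downstream one matched none of the 6 motifs. Among all 32851 start-site windows of this length, 12.4% held the TATA box, 32.7% the GC box, 1.55% the cyclic AMP response element and 12% the ETS core. The AP-1 site occurred in 6.75% of all windows and the SMAD palindrome in 0.167%, and neither occurred in any of the 10 windows found for 8 of the members. A match is a description of the letters and says nothing of binding.

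Each library held between 18951710 and 27716975 reads assigned to transcripts. Along the first principal component, which took 26.4% of the variance, the DMSO+FGF2 libraries lay between 24.0 and 33.7 and all others between -19.7 and 0.7. BGJ398+FGF2 replicate 2 stood apart on the second component at -32.7. Several of the calls and transcript ratios that it changes are given with and without it. The summed TPM (a transcript level corrected for length and library size) of 8 osteoblast markers ran from 7428 to 7700 in DMSO and from 4525 to 4781 in DMSO+FGF2, and all 8 fell with FGF2. Most of that sum was Col1a1 (2623 TPM in DMSO), Col1a2 (2660) and Sparc (2204), while Sp7 stood at 13, Bglap at 10.2, Alpl at 8.24 and Ibsp at 0.903 TPM. The sum was 8173 to 8519 in BGJ398 and 7847 to 8771 in BGJ398+FGF2. Of the osteocyte markers, Sost and Mepe had 0 reads in all libraries, Dmp1 had 26 reads and Fgf23 had 6, so late osteocyte markers were at or near 0, while Pdpn and Irx5 were present. Among markers of other cell types, the 5 macrophage genes summed to 3.97 to 5.99 TPM in DMSO and 10.3 to 11.5 TPM in DMSO+FGF2, with Adgre1 at 0 reads and Ptprc at 2 reads in all. Cd68, a lysosomal protein gene, accounted for the difference, at 2.92 TPM in DMSO and 10.3 in DMSO+FGF2, whereas Lyz2 was at 1.52 and 0.632 TPM and Csf1r at 0.208 and 0.115 TPM. In BGJ398 they summed to 5.51 to 8.22 TPM and in BGJ398+FGF2 to 6.09 to 7.74 TPM. The 5 endothelial genes never summed above 0.489 TPM. The part of these markers in the results below was not tested.

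Per transcript length, the members covered a wide range in the DMSO group. Tgfbr2 was the most abundant at 155 ± 0.328 TPM (SD, n = 3), followed by Ltbp3 at 111 ± 6.43 and Tgfb1 at 107 ± 2.22, whose libraries overlapped. Ltbp1 (55.1 ± 0.822), Tgfb3 (50.3 ± 2.38) and Inhba (44.2 ± 2.17) came next, with no overlap between these neighbours. Fst (21.1 ± 3.63) and Tgfb2 (19.4 ± 0.978) overlapped, and Tgfbr1 (9.72 ± 0.492) and Inhbb (2.74 ± 0.331) were the lowest. The remaining values are reads scaled to library size (CPM), the scale the tests used, unless TPM is named.

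**Figure D1:**
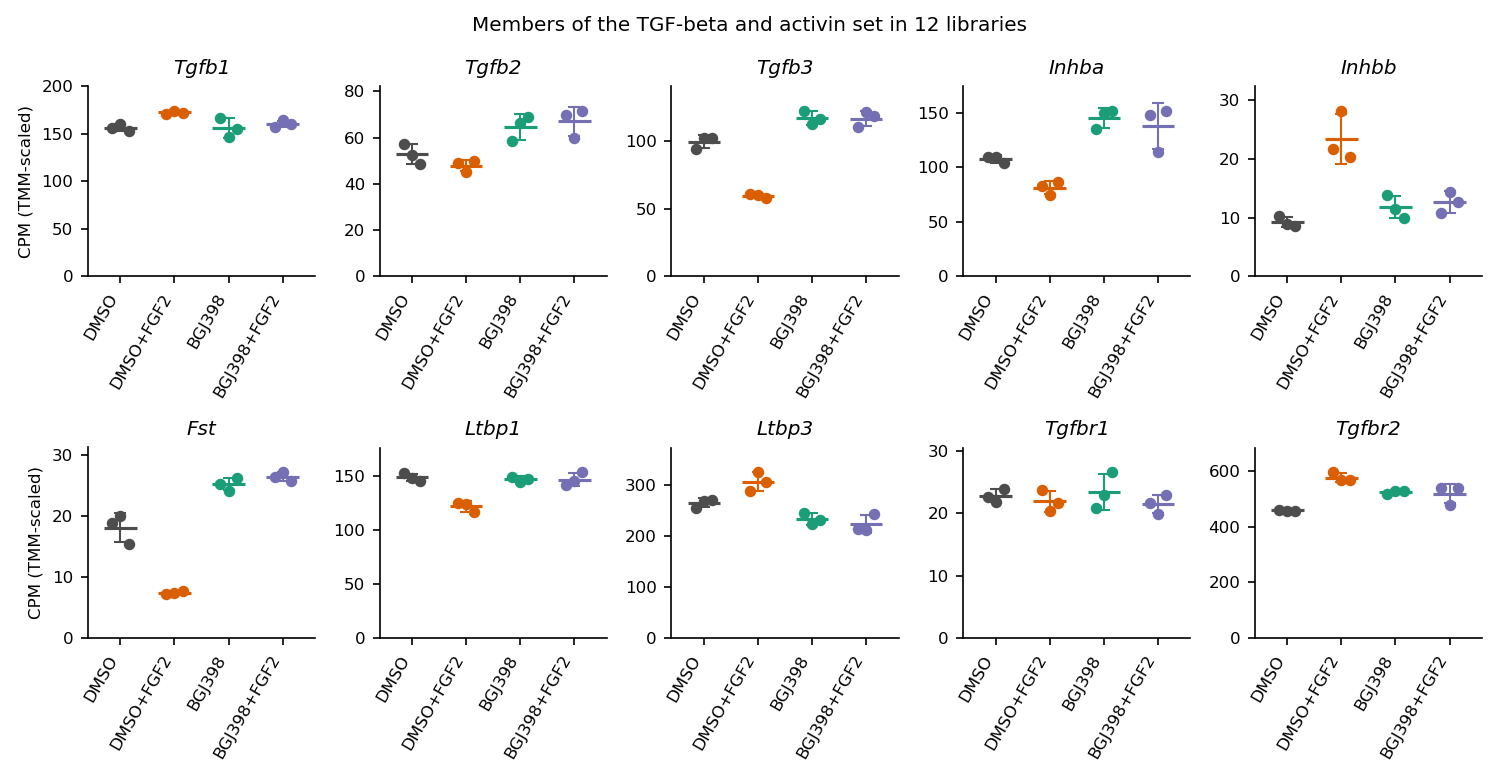
CPM of each member in the 12 libraries, with points for libraries, horizontal lines for group means and bars for 1 SD (n = 3). The DMSO+FGF2 libraries of Fst sit between 7.18 and 7.70 and those of Tgfb3 between 58.0 and 60.4, below every other library of the same gene, and those of Inhbb sit between 20.3 and 28.1, above every other library.

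Tgfb3, one of the 3 TGF-beta ligands, was the ligand that FGF2 lowered. It stood at 93.8, 102 and 102 CPM in DMSO, at 60.4, 60.3 and 58.0 in DMSO+FGF2, at 122, 112 and 116 in BGJ398 and at 110, 121 and 118 in BGJ398+FGF2. The FGF2 libraries without inhibitor lay below all others, and the inhibitor libraries lay above all DMSO libraries. The BGJ398 difference without FGF2, 0.23 ± 0.057 on the log2 scale, did not pass (edgeR adjusted p = 0.133). In FGF2-treated cells BGJ398 raised Tgfb3 by 0.966 ± 0.058 (edgeR adjusted p = 1.6e-07). The log2 fold change with FGF2 was -0.74 ± 0.058 (SE; edgeR quasi-likelihood test, adjusted p = 2.94e-06), and in the presence of BGJ398 it was -0.004 ± 0.057 (adjusted p = 1). In bulk RNA, fewer cells of a kind and less RNA per cell cannot be told apart. Tgfb3 shares 9.96% of its 31-base words with other genes and overlaps Ttll5, a tubulin-modifying enzyme gene on the other strand, and whether counting used strand is not given in the sources used here. Ttll5 averaged 25.0 CPM and its own FGF2 change was -0.17 ± 0.097 (edgeR adjusted p = 0.283).

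Tgfb1, the most abundant TGF-beta ligand, stayed within a narrow range. Its values were 156, 160 and 153 CPM in DMSO, 171, 174 and 172 in DMSO+FGF2, 167, 146 and 155 in BGJ398 and 157, 164 and 160 in BGJ398+FGF2. With FGF2 alone the libraries were the highest and did not overlap those of DMSO, yet the log2 fold change of 0.14 ± 0.053 missed the threshold of 0.05 (edgeR adjusted p = 0.0979, 95% interval 0.02 to 0.27). With 1 library left out, that edgeR adjusted p ran from 0.0491 to 0.266. In TPM the same groups overlapped, at 104 to 109 and 108 to 114.

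Tgfb2, the third ligand, was higher with the inhibitor. Its values were 57.4, 52.6 and 48.8 CPM in DMSO, 48.9, 45.1 and 49.9 in DMSO+FGF2, 58.4, 66.3 and 69.0 in BGJ398 and 69.7, 59.7 and 71.6 in BGJ398+FGF2. The FGF2 libraries overlapped those of DMSO, and every inhibitor library lay above every library without it. With FGF2 present, BGJ398 raised Tgfb2 by 0.48 ± 0.087 on the log2 scale (edgeR adjusted p = 0.00164), and without FGF2 the difference of 0.29 ± 0.087 did not pass (adjusted p = 0.269, and 0.00523 without the 3 libraries named further on). The FGF2 difference in DMSO was -0.14 (adjusted p = 0.341, 95% interval -0.34 to 0.06).

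The make-up of the TGF-beta ligand pool differed mainly in Tgfb3. Its share of the summed TPM of the 3 ligands was 28.5% ± 1.44 (SD, n = 3) in DMSO and 18.2% ± 0.351 in DMSO+FGF2, against 30% ± 0.666 in BGJ398 and 29.9% ± 0.551 in BGJ398+FGF2. The Tgfb1 share was 60.5% in DMSO and 70.8% in DMSO+FGF2, and that of Tgfb2 was 11% in both. The summed ligand TPM was 177 ± 1.53 in DMSO, 158 ± 6.08 in DMSO+FGF2, 199 ± 9.07 in BGJ398 and 197 ± 5.57 in BGJ398+FGF2.

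Inhba and Inhbb, which encode the beta subunits of activin A and activin B, moved in opposite directions. Inhba stood at 110, 110 and 104 CPM in DMSO, at 83.3, 74.7 and 86.4 in DMSO+FGF2, at 135, 150 and 152 in BGJ398 and at 148, 114 and 152 in BGJ398+FGF2. In CPM the DMSO+FGF2 libraries lay below all others and the inhibitor libraries above all libraries without it. The lowest of the inhibitor libraries was BGJ398+FGF2 replicate 2. In TPM that library stood at 31.6, within the DMSO+FGF2 range (24.6 to 36.4) and below the DMSO libraries (41.8 to 46.0). The transcript Inhba-202 had 0 reads in it. Inhba fell with FGF2 by 0.41 ± 0.095 on the log2 scale (edgeR adjusted p = 0.0115), a call lost without DMSO+FGF2 replicate 2 (-0.35, adjusted p = 0.0554) and with length-scaled TPM in place of counts (adjusted p = 0.0927). BGJ398 raised it by 0.76 ± 0.095 in FGF2-treated cells (adjusted p = 9.61e-05), and its 0.43 ± 0.094 without FGF2 missed the threshold (adjusted p = 0.0906, and 0.00542 without BGJ398+FGF2 replicate 2).

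Inhbb, the least abundant member in TPM, was the one with the largest rise. It stood at 10.2, 8.96 and 8.64 CPM in DMSO, at 21.6, 28.1 and 20.3 in DMSO+FGF2, at 13.8, 11.5 and 10.0 in BGJ398 and at 10.8, 14.4 and 12.7 in BGJ398+FGF2. All DMSO+FGF2 libraries lay above all others, and the other 3 groups ranged from 8.64 to 14.4. BGJ398 lowered Inhbb in FGF2-treated cells (log2 difference -0.885 ± 0.147, edgeR adjusted p = 0.000893). The log2 fold change with FGF2 was 1.335 ± 0.149 (edgeR adjusted p = 5.17e-05), and under BGJ398 it was 0.10 ± 0.152 (adjusted p = 1, 95% interval -0.25 to 0.45). In TPM, Inhbb made up 5.86% ± 0.942 of the 2 subunits in DMSO and 17.7% ± 5.05 in DMSO+FGF2, with 6.52% in BGJ398 and 8.63% in BGJ398+FGF2. The last value was 13% in replicate 2 and averaged 6.44% without it. Inhba remained the more abundant subunit in every library.

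Fst, the activin-binding protein follistatin, showed the largest fall among the members. Its values were 18.8, 20 and 15.4 CPM in DMSO, 7.18, 7.29 and 7.70 in DMSO+FGF2, 25.2, 24.1 and 26.1 in BGJ398 and 26.4, 27.1 and 25.7 in BGJ398+FGF2. The DMSO+FGF2 libraries were the lowest, the DMSO libraries lay between, and the 2 inhibitor groups were the highest and overlapped each other. The log2 fold change with FGF2 was -1.29 ± 0.098 (edgeR adjusted p = 2.12e-06), and with FGF2 present BGJ398 raised Fst 3.57-fold (1.84 ± 0.097, adjusted p = 4.53e-08). Without FGF2, BGJ398 raised it 1.39-fold (0.48 ± 0.09, adjusted p = 0.0428). That last call was lost in 11 of the 12 fits that leave out 1 library, where its adjusted p ran up to 0.213, and it held only without BGJ398+FGF2 replicate 2 (adjusted p = 0.0281). It was also lost with length-scaled TPM (adjusted p = 0.374). Of all 20 alternative settings, the fits that leave out 1 library among them, the call held in 6.

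Set against the activin subunits in TPM, Fst was 0.45 ± 0.0741 of Inhba plus Inhbb in DMSO and 0.228 ± 0.0357 in DMSO+FGF2. The ratio was 0.476 ± 0.038 in BGJ398 and 0.52 ± 0.142 in BGJ398+FGF2, where replicate 2 gave the highest value of 0.683 and the other 2 libraries averaged 0.439. Every DMSO+FGF2 library, at 0.197 to 0.267, lay below every library of the other groups, the lowest of which was 0.366. These are ratios of transcript levels and not of protein.

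**Figure D2:**
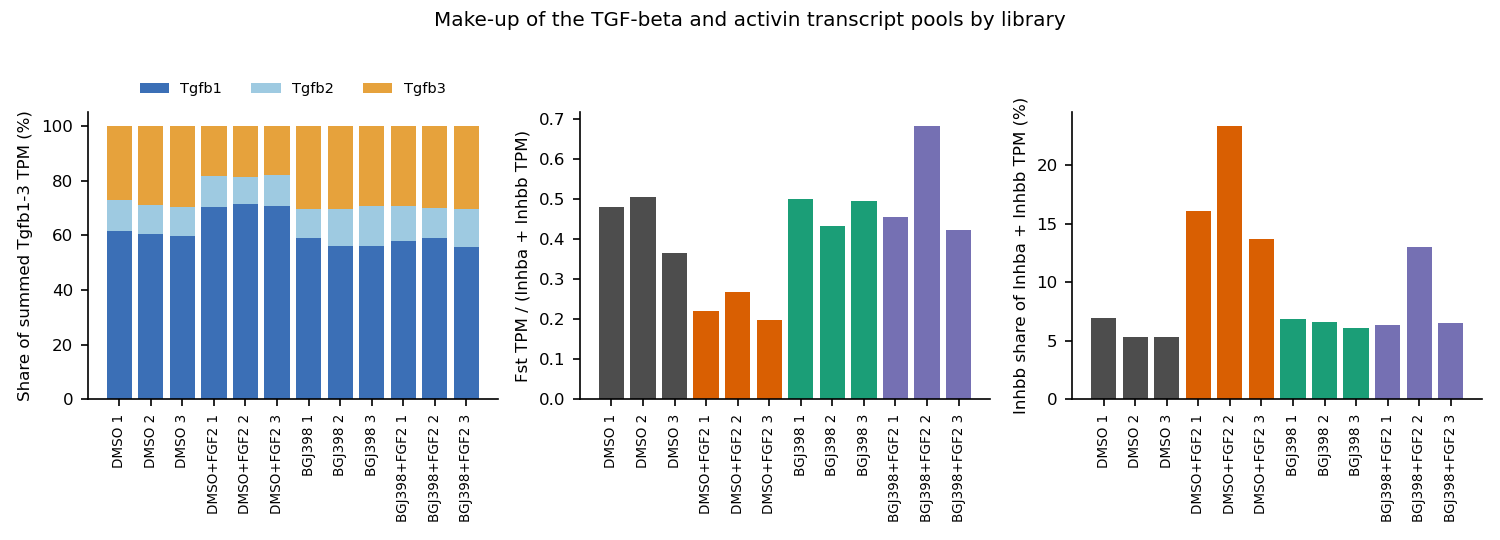
Make-up of the ligand and activin transcript pools in each library: shares of summed Tgfb1, Tgfb2 and Tgfb3 TPM in percent (left), the ratio of Fst TPM to Inhba plus Inhbb TPM (middle) and the Inhbb share of Inhba plus Inhbb TPM in percent (right). In the 3 DMSO+FGF2 libraries the Tgfb3 share is 17.8% to 18.5%, the Fst ratio 0.197 to 0.267 and the Inhbb share 13.7% to 23.4%.

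Ltbp1, a latent TGF-beta binding protein, fell with FGF2. It stood at 152, 148 and 145 CPM in DMSO, at 125, 124 and 116 in DMSO+FGF2, at 149, 144 and 147 in BGJ398 and at 141, 145 and 153 in BGJ398+FGF2. The DMSO+FGF2 libraries lay below all others, and the other 3 groups overlapped. BGJ398 raised Ltbp1 in FGF2-treated cells by 0.265 ± 0.05 on the log2 scale (edgeR adjusted p = 0.00215). The log2 fold change was -0.29 ± 0.05 with FGF2 (edgeR adjusted p = 0.00166) and -0.005 ± 0.05 under BGJ398 (adjusted p = 1, 95% interval -0.12 to 0.11).

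Ltbp3, which also binds latent TGF-beta and has a role in bone growth, missed the threshold for FGF2 by a small margin and fell with the inhibitor in FGF2-treated cells. Its values were 255, 269 and 271 CPM in DMSO, 288, 325 and 307 in DMSO+FGF2, 246, 223 and 232 in BGJ398 and 214, 211 and 243 in BGJ398+FGF2. The DMSO+FGF2 libraries were the highest and the inhibitor libraries the lowest, with no overlap with DMSO. The BGJ398 difference without FGF2, -0.18 ± 0.066 on the log2 scale, did not pass (edgeR adjusted p = 0.417). The FGF2 difference was 0.21 ± 0.066 (edgeR adjusted p = 0.0511, and 0.0241 by DESeq2), and BGJ398 lowered Ltbp3 in FGF2-treated cells by 0.46 ± 0.066 (edgeR adjusted p = 0.00028). The Ltbp3 TPM of DMSO+FGF2 replicate 2 was 176, because 2 reads assigned to the 156-base transcript Ltbp3-209 counted as 63.6 TPM there and 0 in the other 11 libraries. Without that transcript the group mean was 120 ± 9.07 TPM in place of 141 ± 31.4.

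Tgfbr2, the type II receptor that binds TGF-beta first, rose with FGF2. It stood at 461, 458 and 457 CPM in DMSO, at 596, 567 and 567 in DMSO+FGF2, at 519, 528 and 528 in BGJ398 and at 541, 480 and 538 in BGJ398+FGF2. In CPM the DMSO libraries were the lowest, the DMSO+FGF2 libraries the highest, and the inhibitor libraries lay between. In TPM BGJ398+FGF2 replicate 2 stood at 138, below the DMSO libraries (154 to 155). The BGJ398 libraries (165 to 184 TPM) overlapped those of DMSO+FGF2 (170 to 192 TPM). In FGF2-treated cells the BGJ398 difference of -0.15 ± 0.052 on the log2 scale did not pass (edgeR adjusted p = 0.0569). The log2 fold change with FGF2 was 0.33 ± 0.053 (edgeR adjusted p = 0.000862) and under BGJ398 -0.015 ± 0.053 (adjusted p = 1). BGJ398 without FGF2 gave 0.20 ± 0.053, which did not pass (adjusted p = 0.202, and 0.0346 without BGJ398+FGF2 replicate 2, 0.032 by DESeq2 and 0.00513 without the 3 libraries named further on).

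Tgfbr1, the type I receptor that signals to the SMADs, did not pass in any comparison. Its values were 22.7, 21.9 and 24.0 CPM in DMSO, 23.8, 20.4 and 21.6 in DMSO+FGF2, 20.8, 22.9 and 26.6 in BGJ398 and 21.7, 19.9 and 22.9 in BGJ398+FGF2. All 4 groups overlapped. The 95% interval of its FGF2 difference was -0.28 to 0.16 on the log2 scale. In TPM the ratio of Tgfbr2 to Tgfbr1 was 16.0 ± 0.85 in DMSO, 20.4 ± 1.03 in DMSO+FGF2, 17.9 ± 1.81 in BGJ398 and 20.2 ± 0.8 in BGJ398+FGF2.

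**Figure D3:**
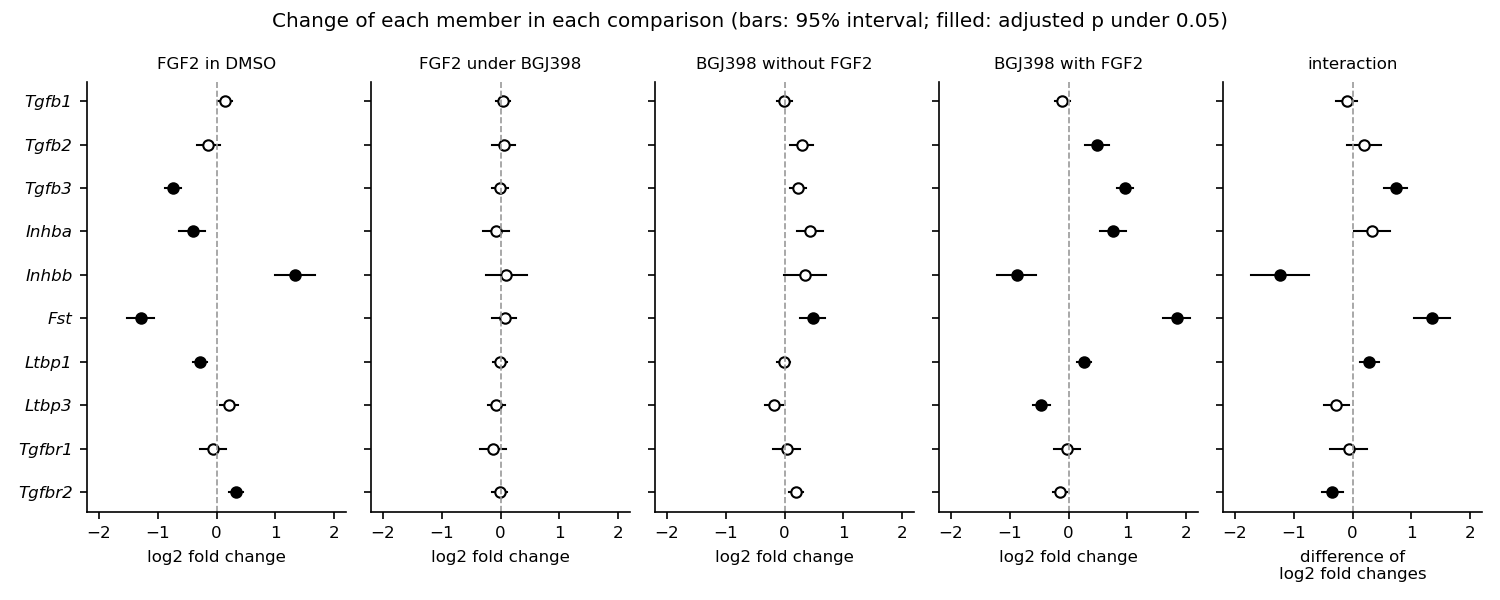
Log2 fold change of each member (points) with its 95% interval (lines) in the 4 comparisons and the interaction, filled where the edgeR adjusted p is under 0.05. Of 10 members, 6 are filled for FGF2 in DMSO, 0 for FGF2 under BGJ398, 1 for BGJ398 without FGF2, 7 for BGJ398 with FGF2 and 5 for the interaction.

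Counted together, FGF2 in DMSO changed 6 of 10 members, 2 higher and 4 lower, against 13.4% of the 12542 genes tested (7.57% higher and 5.82% lower). For 8 members the 3 libraries of one group did not overlap those of the other, as for 37.6% of all genes. The members' median log2 change was -0.10 and that of all genes -0.004. Under BGJ398, FGF2 changed 0 of 10 members, where percent called was 0 over all genes by edgeR, with 325 genes at an unadjusted p under 0.05 and 5 genes called by DESeq2. The members' differences there ran from -0.12 to 0.10, and 0 members had groups that did not overlap, against 6.31% of all genes. These comparisons do not share libraries. BGJ398 without FGF2 changed 1 of 10 members against 0.327% of all genes (0.151% higher and 0.175% lower), with 6 members not overlapping against 17.2%. BGJ398 with FGF2 changed 7 of 10, 5 higher and 2 lower, against 22.2% (10.8% higher and 11.4% lower), with 9 members not overlapping against 34.8%. Fst, Tgfb3, Inhba, Tgfb2 and Ltbp1 were higher there, and Inhbb and Ltbp3 lower. Leaving out BGJ398 replicate 1, DMSO+FGF2 replicate 2 and BGJ398+FGF2 replicate 2, which deviated together from their groups and were picked after seeing the data, BGJ398 without FGF2 changed 6 members: Fst, Inhba, Tgfb2, Tgfb3, Ltbp3 and Tgfbr2. Each comparison shares a group with others, so the counts are not independent of each other. The members were chosen with earlier results of these data known. These counts, and that of the interaction below, therefore describe the list and do not test it.

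The difference between the FGF2 responses with and without BGJ398, tested as an interaction, passed for 5 of 10 members against 4.24% of all genes (1.99% positive and 2.25% negative). It was positive for Fst (1.36 ± 0.132, edgeR adjusted p = 5.52e-05), Tgfb3 (0.73 ± 0.082, adjusted p = 0.000171) and Ltbp1 (0.28 ± 0.07, adjusted p = 0.0385). It was negative for Inhbb (-1.235 ± 0.213, edgeR adjusted p = 0.0043) and Tgfbr2 (-0.345 ± 0.074, adjusted p = 0.0176). The Ltbp1 call was lost in 10 of the 12 fits that leave out 1 library, where the adjusted p reached 0.104, and held without BGJ398+FGF2 replicate 1 or replicate 2. The Tgfbr2 call was lost without DMSO replicate 2 (0.0543), DMSO replicate 3 (0.0528) or DMSO+FGF2 replicate 1 (0.0509). Both calls were also lost with length-scaled TPM in place of counts. That of Ltbp1 was lost with no low-count filter and with the replicate block as well. Inhba did not pass (0.33 ± 0.134, adjusted p = 0.215) but did without BGJ398+FGF2 replicate 2 (0.45, adjusted p = 0.0083), and Ltbp3 (-0.28, adjusted p = 0.125) did without BGJ398+FGF2 replicate 3 (adjusted p = 0.0437).

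Transcript shares are estimates and were described without a test. Tgfbr2-202, the form with the insert shown above, made up 33.6% ± 0.681 of Tgfbr2 TPM in DMSO, 35.1% ± 1.96 in DMSO+FGF2, 34.8% ± 1.28 in BGJ398 and 37.8% ± 5.52 in BGJ398+FGF2, where replicate 2 reached 44.2% and the other 2 libraries averaged 34.6%. The insert form of Tgfb2 took 16.4% ± 4.15 of the 2 coding forms in DMSO, 17.4% ± 0.404 in DMSO+FGF2, 16.0% ± 4.85 in BGJ398 and 23.3% ± 5.67 in BGJ398+FGF2, the last averaging 20.1% without replicate 2. The insert form of Ltbp1 took 51.0% ± 4.57 of the 2 downstream forms in DMSO, 50.5% ± 5.94 in DMSO+FGF2, 51.2% ± 8.01 in BGJ398 and 49.1% ± 1.16 in BGJ398+FGF2. The upstream Ltbp1 start, whose transcript codes a longer protein, took 6.40% ± 1.04 in DMSO, 6.48% ± 1.59 in DMSO+FGF2, 9.57% ± 1.63 in BGJ398 and 8.89% ± 1.65 in BGJ398+FGF2.

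The main Fst transcripts each had a lower mean TPM in DMSO+FGF2 than in DMSO. Fst-202 stood at 8.02 ± 1.46 TPM in DMSO and 3.31 ± 0.399 in DMSO+FGF2, and its share of the gene was 38.0% and 39.4%. Fst-203, annotated as retaining an intron, stood at 7.98 ± 2.65 and 3.47 ± 0.366 TPM. Fst-201, which has 1035 coding bases against 954 in Fst-202, was at 1.60 ± 0.263 TPM in DMSO and between 0 and 0.252 TPM in DMSO+FGF2, a share of 7.60% against 0.999%. It stood at 3.00 ± 1.14 TPM in BGJ398 and 3.80 ± 1.53 in BGJ398+FGF2. Fst-205, with 1032 coding bases, differs in its coding sequence from Fst-201 only by an insert of 3 bases. Its share was 12.9% ± 9.76 in DMSO and 15.5% ± 7.69 in DMSO+FGF2. How reads were divided between these like forms is an estimate, and the loss of Fst-201 was not tested. Tgfb3 and Inhbb are each quantified as 1 transcript.

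**Figure D4:**
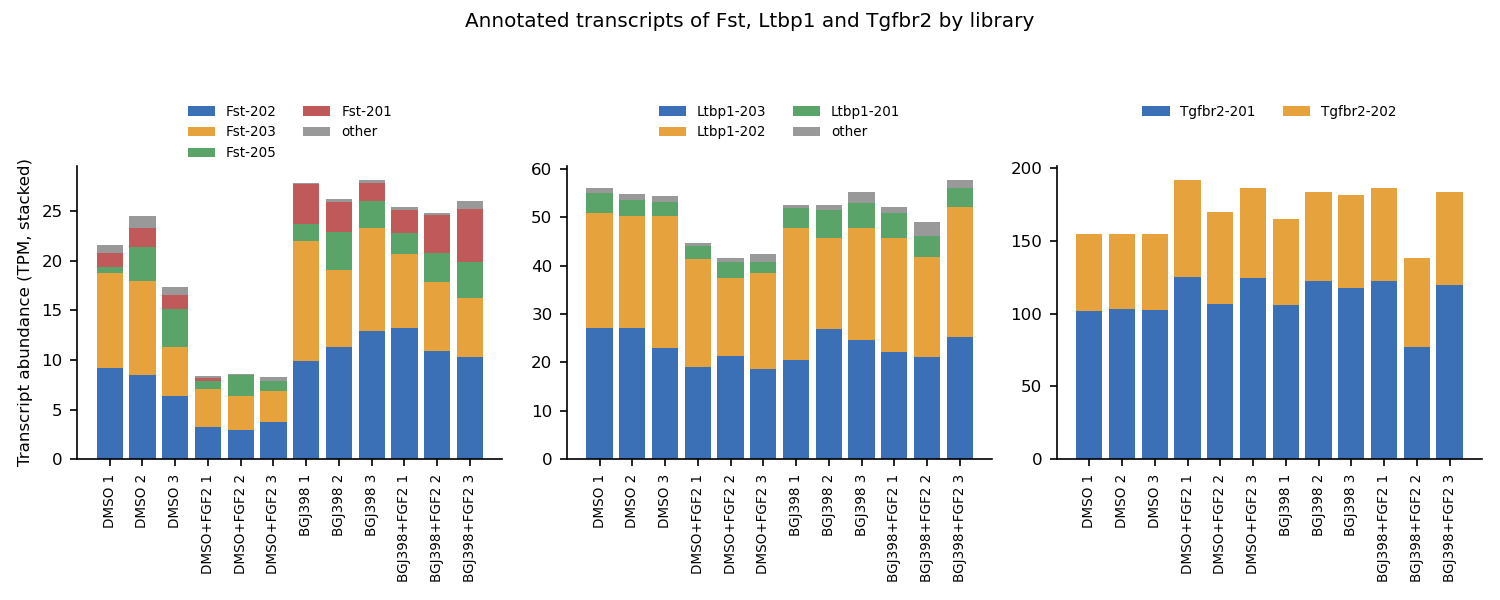
Stacked TPM of the annotated transcripts of Fst, Ltbp1 and Tgfbr2 in each library. Every Fst bar of DMSO+FGF2 is 8.29 to 8.55 TPM high against 17.3 to 28.2 TPM elsewhere, and the Tgfbr2-202 share lies between 33.1% and 44.2% in all libraries.

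Other genes of the pathway were described from 6 lists, whose counts stand against 13.4% of all genes called for FGF2 in DMSO (7.57% higher and 5.82% lower). Of 15 tested genes of the latent complex and its activation, FGF2 in DMSO raised 5 and lowered 3. Lrrc32, a cell-surface anchor of latent TGF-beta, rose from 19.3 to 38.3 CPM (0.99 ± 0.096, edgeR adjusted p = 1.65e-05). Thbs1, an activator of latent TGF-beta, fell from 933 to 551 CPM (-0.76 ± 0.077, adjusted p = 2.25e-05). Fbn1, the microfibril protein that holds latent binding proteins, fell from 66.8 to 48.0 CPM, and Mmp2 rose from 754 to 941 CPM. The convertase gene Pcsk5 had 0 reads in all libraries.

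Of 7 tested follistatin-type binders and ligand traps, 0 rose and 2 fell: Fstl1 (697 to 576 CPM) and Vasn (218 to 173 CPM), a TGF-beta-binding membrane protein. Of 6 other receptors and co-receptors, Tgfbr3, which presents TGF-beta to the type II receptor, rose from 86.8 to 105 CPM and Acvr2a, an activin receptor, fell from 25.1 to 19.8 CPM. Fstl4 among the binders and Tdgf1 among the co-receptors had 0 reads. Of 17 SMAD transducers and regulators, 3 rose and 1 fell. Pmepa1, a feedback inhibitor, rose from 133 to 173 CPM (0.37 ± 0.064, edgeR adjusted p = 0.00155), and the transcriptional repressor Tgif1 rose from 22 to 29.5 CPM. Nedd4l, a ubiquitin ligase for pathway proteins, rose from 23.9 to 28.5 CPM, and Tgif2 fell from 15.2 to 12.4 CPM. Of the other family ligands, 4 were tested and 0 passed for FGF2 in DMSO, and Inhbc, Mstn, Nodal and Gdf3 had 0 reads in all libraries. The nearest was Gdf11, at 0.20 ± 0.065 on the log2 scale (edgeR adjusted p = 0.0556). BGJ398 lowered Gdf11 in FGF2-treated cells (-0.37 ± 0.065, edgeR adjusted p = 0.00136).

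Of 18 tested genes commonly used as TGF-beta response genes, 7 rose and 6 fell, with a median log2 change of 0.05 against -0.004 over all genes. Postn fell from 266 to 91.4 CPM (-1.54 ± 0.066, edgeR adjusted p = 1.12e-08), and Col4a1 and Snai2 fell by 0.79 and 0.65 on the log2 scale. Hmga2, a chromatin protein, rose from 27.9 to 64.9 CPM (1.22 ± 0.071, adjusted p = 1.95e-07). The list therefore moved in both directions. Under BGJ398, FGF2 changed 0 genes of all 6 lists past the test, against 0% of all genes, so that count is no result about the lists. BGJ398 with FGF2 changed 6 of the response genes upward and 5 downward, against 22.2% of all genes (10.8% higher and 11.4% lower). Among these response genes, Postn (1.61 ± 0.066, edgeR adjusted p = 5.21e-09) and Acta2 (0.88 ± 0.085, adjusted p = 1.15e-05) rose. Hmga2 (-1.67 ± 0.073, edgeR adjusted p = 9.82e-09) and Bhlhe40 (-0.84 ± 0.077, adjusted p = 7.34e-06) fell. Without FGF2, BGJ398 raised 1 response gene and lowered 1, against 0.327% of all genes. These were Lox (0.39 ± 0.061, edgeR adjusted p = 0.0174) and Hmga2 (-0.45 ± 0.074, adjusted p = 0.0241).

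**Figure D5:**
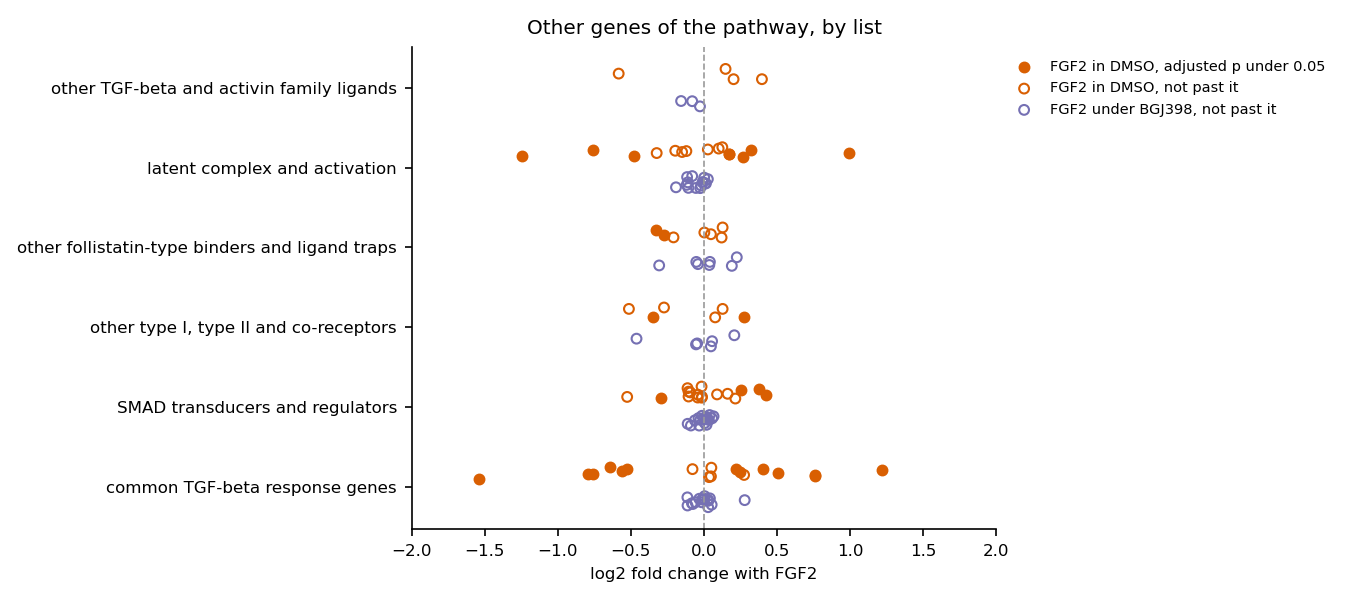
Log2 fold change with FGF2 for the genes of 6 pathway lists, in DMSO (orange) and under BGJ398 (purple), filled where the edgeR adjusted p is under 0.05. Filled points occur in DMSO on both sides of 0, from Postn at -1.54 to Hmga2 at 1.22. None occur under BGJ398, where 0% of all genes passed. Gdf1, with 101 reads in all libraries, lies outside the axis under BGJ398.

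For the members that passed the interaction, the genes nearest in pattern were found by the distance between centred group means of log2 CPM over the 4 groups, among 10347 genes. Fst was nearest to Igf1 (distance 0.088), then Tnfrsf19 and Adam12. Tgfb3 was nearest to Sparc (0.038), then Egr2 and Ccn2. Inhbb was nearest to Ly6a (0.092), then Artn and Bcl3, and Ltbp1 to Lzic (0.008), Wnt5a and 1190005I06Rik. Tgfbr2 was nearest to Wdr45 (0.021), Irak2 and Hbegf. With 4 group means per gene these are descriptions of likeness only.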

How the data were processed

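PolyA RNA of 12 libraries in 4 groups was quantified with Salmon, and the genome build named is GRCm39, per the submitters' processing notes; the Salmon version is not given in the sources used here. The deposited files hold expected counts (estimated read counts per transcript) and TPM, with an effective length per transcript, per the file headers. Of 116178 transcripts, 114656 were matched by Ensembl ID to genes of GENCODE M21, used for names and structures. The other 1522 held 0.499% to 0.641% of reads and were left out. Expected counts and TPM were summed per gene. Summed counts were rounded, scaled by TMM and tested with edgeR 4.0.16 (quasi-likelihood, R 4.3.3) over 12542 genes that passed filterByExpr, with all 12 libraries in the fit and Benjamini-Hochberg adjustment over all genes at 0.05; the biological coefficient of variation was 8.49%. The script was tested on simulated data. Alternatives used limma 3.58.1 and DESeq2 1.42.0. Start-site windows are RefSeq's, on GRCm38.p6. The members and lists were chosen with earlier results of these data known. Named were all members, up to 4 called genes per list and comparison with the smallest p, and pathway list genes at 0 reads. For BGJ398 with FGF2, only some of the genes that this rule takes are named.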

Additional observations from a re-analysis of the deposited data

Results flagged for a closer look

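Over all genes, 532 had a response to FGF2 that differed between DMSO and BGJ398 by the interaction test of edgeR at an adjusted p under 0.05, 17 of them among the members and pathway lists. The differences of the 13 that the naming rule takes come first, given as the log2 response under BGJ398 minus that in DMSO. Among the members the difference was 1.358 for Fst, 0.734 for Tgfb3, 0.282 for Ltbp1, -0.345 for Tgfbr2 and -1.235 for Inhbb. Among the other pathway genes it was positive for Postn (1.547), Col4a1 (0.681), Thbs1 (0.678), Snai2 (0.613) and Fstl1 (0.31), which fell with FGF2 in DMSO. It was negative for Hmga2 (-1.224), Lrrc32 (-1.002) and Pmepa1 (-0.371), which rose there. The other 4 are response genes that the rule does not take for the interaction, named after their values were seen. They are Ccn2 (0.676) and Acta2 (0.587), which fell with FGF2 in DMSO, and Tgfbi (-0.815) and Bhlhe40 (-0.478), which rose.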

How the results depend on the processing

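No member changed direction in a called comparison under any alternative run, and alternatives were run for the members and the counts over all genes, not for the list genes. BGJ398 without FGF2 depended most on the setting. All genes called there numbered 41, against 153 by DESeq2, 83 with no low-count filter, 64 with only the groups compared and 12 with length-scaled TPM, and ran from 9 (without DMSO replicate 2 or 3) to 104 (without BGJ398+FGF2 replicate 2) when 1 library was left out. Members called there numbered 1, against 4 by DESeq2, 2 with no filter and 0 with length-scaled TPM, and ran from 0 to 3 with 1 library left out. FGF2 in DMSO called 1680 genes, and 1018 without DMSO replicate 3, 1052 without DMSO replicate 2, 1086 without DMSO+FGF2 replicate 2 and at most 2256 with 1 library left out. Members called for FGF2 in DMSO numbered 6, and 7 without BGJ398+FGF2 replicate 2, and ran from 5 to 8 with 1 library left out. FGF2 under BGJ398 called 0 genes, against 5 by DESeq2, 6 with no filter and 1 with only the groups compared, and from 0 to 1 with 1 library left out. BGJ398 with FGF2 called 2782 genes, against 1794 with only the groups compared and 1813 with length-scaled TPM. The interaction called 532 genes, against 825 by DESeq2 and 347 with length-scaled TPM, which called 3 members; leaving out 1 library gave from 328 (without DMSO replicate 2) and 337 (without DMSO replicate 3) to 956 (without BGJ398+FGF2 replicate 2) genes and 3 to 6 members. Leaving out the 3 libraries that deviated together (BGJ398 replicate 1, DMSO+FGF2 replicate 2 and BGJ398+FGF2 replicate 2), chosen after seeing the data, gave 2611 genes for FGF2 in DMSO, 4 for FGF2 under BGJ398, 730 and 6 members for BGJ398 without FGF2, 3691 and 9 members for BGJ398 with FGF2, and 1038 for the interaction. The cause of these shifts was not tested.

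Replicate numbers showed no clear pairing of the libraries: of 18 same-numbered pairs, 2 correlated above 0.1 (range -0.146 to 0.239), and 5 of 12 libraries correlated best with their own number. The value of 0.239 was that of DMSO+FGF2 replicate 2 with BGJ398+FGF2 replicate 2. With 3 libraries per group, these correlations cannot exclude pairing. With the replicate block, BGJ398 without FGF2 called 21 genes and 0 members, and Fst there had an edgeR adjusted p of 0.0907 and the Ltbp1 interaction 0.0741. Depth limits Inhbb, with 202 to 659 reads per library, and Fst, with 162 to 584.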
